A study of Mus musculus with 14 samples.

Results

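The hairpins described here are mmu-mir-682 and the 3 copies of mir-692 (mmu-mir-692-1, mmu-mir-692-2 and mmu-mir-692-3), 4 of the 539 miRNA hairpins in the authors' deposited table. They were chosen by name, after their fold changes in this table were known. The rule describes them as hairpins whose sequence lies inside transcripts or pseudogenes of ferritin light chain or of a ribosomal protein. The mir-692-1 hairpin resembles the ferritin transcript but was found whole in no transcript, as given below. Small RNA was sequenced from exosomes, the small vesicles that cells release, of adipose tissue macrophages (ATMs), the CD11b+F4/80+ macrophages of fat. By the labels, 7 libraries are of the obese group and 7 of the lean group, all from C57BL/6 mice, whose cells were kept for 72 h in IMDM with 10% exosome-free serum before the vesicles were spun down. The sources used here do not give the diet or genotype behind the obese state or the number of animals, so p-values measure the spread between these libraries. The age labels widen by 1 week per library in the order of listing and were not used. Taken as written, their upper bounds are higher in every lean library, and age and obesity then cannot be told apart.

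A miRNA is cut from the stem of a folded precursor, the hairpin, and its seed, bases 2 to 8, sets most of its target pairing. Ferritin light chain, encoded by Ftl1, is a subunit of the shell in which cells store iron, and macrophages take up, store and release iron. Rpl37a encodes a protein of the large ribosomal subunit. Both mRNAs are made in large amounts by most cells, and both have left many processed pseudogenes, which are copies of spliced mRNAs set back into the genome. Sequencing assigns a small RNA to a hairpin by its letters, so a hairpin that lies within such a copy can share stretches of letters with the mRNA.

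The mature sequences are shown because they are the letters a mature read of these rows would carry. Seeds are in capitals, 5′ to 3′, from RefSeq on GRCm38.p6.
miR-692: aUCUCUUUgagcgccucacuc
miR-682: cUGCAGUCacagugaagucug
Each seed belonged to 1 mature name among the 1679 in the RefSeq table, so neither miRNA had a seed relative there. The 3 copies of mir-692 give the same mature sequence and cannot be told apart by it.

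The hairpins below show how far the copies differ outside that sequence. The mature part is in capitals.
mir-692-2: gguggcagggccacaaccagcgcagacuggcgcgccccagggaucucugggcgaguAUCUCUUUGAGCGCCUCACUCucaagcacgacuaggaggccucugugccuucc
mir-692-1: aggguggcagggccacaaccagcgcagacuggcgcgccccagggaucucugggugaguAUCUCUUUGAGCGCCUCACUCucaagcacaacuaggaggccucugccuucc
mir-682: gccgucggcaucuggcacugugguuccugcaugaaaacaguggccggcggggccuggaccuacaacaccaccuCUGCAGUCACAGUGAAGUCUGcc
The mir-692-2 hairpin lies on the plus strand at chr4:125504749-125504857 (GRCm38), between exons of the glutamate receptor gene Grik3 and over the end of the ferritin pseudogene Ftl2-ps. The mir-692-1 hairpin lies on the minus strand at chr17:6895229-6895337, where GENCODE M21 has no other gene. The mir-692-3 hairpin lies on the plus strand at chr13:74407065-74407173, inside an exon of Ftl1-ps1, which GENCODE M21 types as protein coding and RefSeq as a pseudogene. The mir-682 hairpin lies on the plus strand at chr13:75645046-75645141, inside the processed pseudogene Gm4149. Relative to mir-692-2, with positions counted from its 5′ end, mir-692-1 has C52U and G86A, starts 2 bases earlier and lacks 2 bases near its 3′ end.

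The next stretches come from the mRNAs themselves (GENCODE M21) and are shown to set beside the hairpins. Capitals mark the bases that differ from the hairpin named.
Ftl1 mRNA against mir-692-2: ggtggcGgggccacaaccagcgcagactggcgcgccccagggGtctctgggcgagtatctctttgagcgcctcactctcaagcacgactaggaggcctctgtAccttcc
Rpl37a mRNA against mir-682: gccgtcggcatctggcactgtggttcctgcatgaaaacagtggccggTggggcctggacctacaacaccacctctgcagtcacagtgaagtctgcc
The Ftl1 stretch is bases 715 to 823 of the 968-base Ftl1 transcript, from a gene on chromosome 7 (minus strand). Of its 109 bases, 106 (97.2%) equal mir-692-2, and the differences, Ftl1 base first and counted from the hairpin's 5′ end, are G7A, G43A and A103G. Its first 91 bases are the last of the coding sequence, stop codon included, and 18 belong to the 3′ UTR. The mature miR-692 sequence is identical to bases 771 to 791 of that transcript, in exon 4 and 14 bases before the end of the coding sequence. For mir-692-1 the identity with Ftl1 was 94.6%, with 4 mismatches and a gap of 2 bases.

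The Rpl37a stretch is bases 182 to 277 of the 558-base Rpl37a transcript, from a gene on chromosome 1 (plus strand), all of it coding. It equals mir-682 in 95 of 96 bases (99.0%), with T48C as the difference. The exon junction between exons 3 and 4 of Rpl37a falls after base 65 of the hairpin, so the hairpin's letters are those of a spliced mRNA. The mature miR-682 sequence is identical to bases 255 to 275 of that transcript, which lie past that junction in exon 4. The label ferritin- and ribosomal-gene-like was thus checked on the letters of mir-692-1, mir-692-2 and mir-682, and for mir-692-3 on its mature sequence and its place in Ftl1-ps1.

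**Figure D1:**
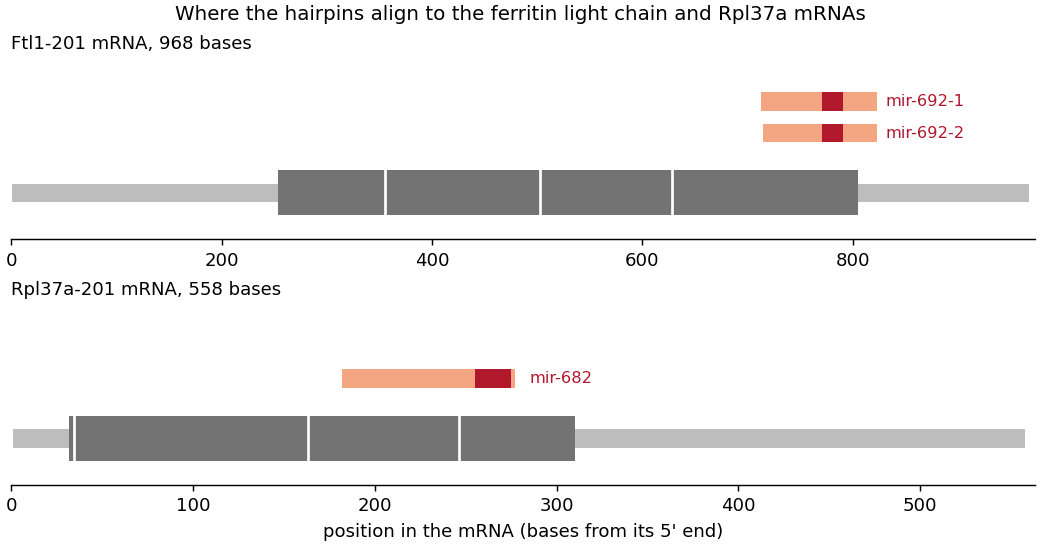
Positions (bases from the 5′ end) at which mir-692-1 and mir-692-2 align to the Ftl1 mRNA and mir-682 to the Rpl37a mRNA, with hairpins in light red and the mature part in dark red. The thick grey bar is the coding sequence and white lines are exon junctions. Both mir-692 hairpins reach 18 bases past the stop codon of Ftl1, and mir-682 spans a junction of Rpl37a.

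The shared letters went beyond the named mRNAs, since the mature sequences recur in pseudogenes. The mature miR-692 sequence was found, sense strand only, in transcripts of 7 genes on 7 chromosomes. These are Ftl1, Ftl1-ps1, Ftl1-ps2, Ftl2-ps, Gm12164, Gm15590 and Gm5278. The mature miR-682 sequence was found in 7 genes on 4 chromosomes, which are Rpl37a, Gm4149 and 5 further pseudogenes. Neither mature sequence was found on the antisense strand of a transcript. Over whole hairpins, an identical stretch of at least 20 bases, on either strand and with the hairpin's own host genes left out, was shared with 10 genes by mir-692-2, 13 by mir-692-1 and 19 by mir-682. Almost all were pseudogenes on the sense strand, the exceptions being Ftl1 and Ftl1-ps1 for mir-692, and Rpl37a and an antisense stretch of 20 bases in Cemip2 for mir-682.

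The copies mir-692-2 and mir-692-3 have no base to tell them apart by. All 109 bases of mir-692-2 were found unbroken at bases 657 to 765 of a transcript of Ftl1-ps1, and those are the bases at which the annotation places mir-692-3. A search of every 21-base window, the length of the mature sequences, showed how little of each hairpin is its own. For mir-692-2, 89 of 89 windows (100%) occur in sense transcripts of genes other than its hosts, and 54 (60.7%) occur in Ftl1. Those genes include Ftl1-ps1, the host of mir-692-3, which by itself holds all 89. Apart from it and the hosts of mir-692-2, the longest unbroken stretch was 84 bases, in Gm12164. For mir-682 the count was 71 of 76 windows (93.4%), with 55 (72.4%) in Rpl37a. For mir-692-1 it was 51 of 89 windows (57.3%), with 28 (31.5%) in Ftl1 and 44 shared with mir-692-2. The other 38 windows of mir-692-1 were in no transcript of GENCODE M21 other than miRNAs. Among the 447 hairpins of the table that matched a RefSeq hairpin, 394 had no such window and the median was 0%. At least 50% of windows were shared by 9 of the 447, which are mir-692-1, mir-692-2, mir-682 and 6 others.

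The study set miRNAs of the obese group against those of the lean group. Which group stands on top of the fold changes is not stated in the table. A published report on these vesicles, outside the files, found miR-155 raised in the obese group, and the authors' deposited table gives mir-155 a log2 fold change of 4.41. Read that way, a negative value stands for a lower level in the obese group. The table has no value for a single library, so depth is unknown, the values in each library cannot be shown, and whether the groups overlap is not known.

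All 4 hairpins lay on the side opposite to mir-155 in the authors' deposited table, by log2 fold changes within 0.57 of each other. As their fold changes were known when they were chosen, these are a description and not a test. By the authors' moderated test, with Benjamini-Hochberg adjustment over all rows, 19 of 539 hairpins had an adjusted p under 0.05 with a negative fold change (3.53%) and 11 with a positive one (2.04%), 30 in all (5.57%). After recentring on the most abundant hairpins, a shift of 0.34 on the log2 scale, the split was 25 negative and 8 positive. All 4 hairpins described here are among the 19 negative calls (21.1%). At an unadjusted p under 0.05 the background was 9.09% negative and 8.53% positive, and the 4 are again among the negative ones. Their median log2 fold change was −4.69, beside 0.09 over all 539 hairpins. Subtracting the shift of 0.34 keeps every negative value given here negative, and turns the small positive ones negative, namely the median over all hairpins, those over the 535 and 365 hairpins used as background further on, mir-1934 and mir-3084-2.

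The copy mir-692-2 had a log2 fold change of −4.87 in the authors' deposited table, a 29.2-fold difference, with an adjusted p of 0.00299. Its standard error, the deposited fold change divided by the deposited t, is 0.93, and the 95% interval runs from −6.82 to −2.92. The copy mir-692-3 was at −4.30 in the authors' deposited table (adjusted p = 0.00344), with an interval from −6.05 to −2.54. These intervals overlap over most of their length, and the copies have the same 109 letters. The copy mir-692-1 was at −4.59 in the authors' deposited table (adjusted p = 0.0378), with the widest interval of the 4, from −7.23 to −1.94, which as a fold is 3.83 to 151. The hairpin mir-682 was at −4.80 in the authors' deposited table (adjusted p = 0.00299), a 27.8-fold difference with an interval from −6.68 to −2.91. Their ranks from the most negative fold change of the table were 3 for mir-692-2, 5 for mir-682, 9 for mir-692-1 and 12 for mir-692-3. The deposited B, the log odds that a hairpin differs, was 2.12 for mir-682, 1.99 for mir-692-2 and 1.78 for mir-692-3. The authors' deposited table gave mir-692-1 a B of −1.17, so its odds were below even, as they were for 11 of the 19 negative calls.

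**Figure D2:**
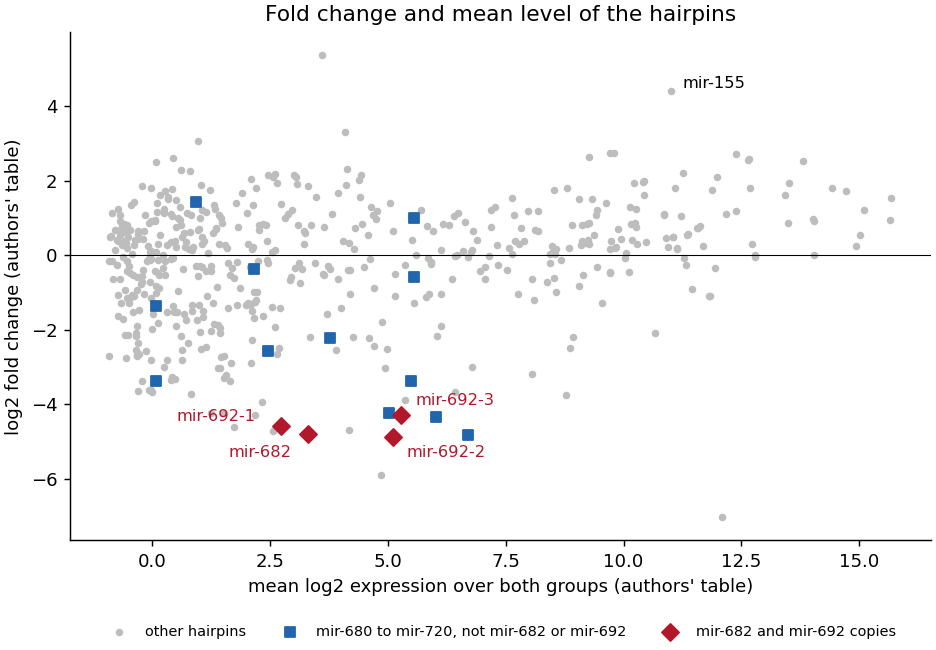
Log2 fold change against mean log2 expression over both groups for the 539 hairpins, both from the authors' deposited table. Red diamonds are mir-682 and the mir-692 copies, blue squares the other hairpins numbered mir-680 to mir-720, and grey points all others. The red points lie between −4.30 and −4.87 on the fold change axis.

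In mean level the 4 hairpins were of middle rank. By the authors' deposited table, mean log2 expression stood at 5.28 for mir-692-3, 5.10 for mir-692-2, 3.31 for mir-682 and 2.74 for mir-692-1, beside a median of 2.34 over all hairpins. These are ranks 178, 182, 233 and 250 of 539 from the highest. The order cannot be tested without values per library. The other negative calls had a median mean log2 expression of 4.93 and the positive calls one of 11.02, so the 4 hairpins lie on both sides of the median of the other negative calls. Were the fit unweighted over 7 libraries a group, each group mean would lie 50% of the fold change from the mean. With the direction taken from mir-155, the log2 level of mir-692-2 would be 2.66 in obese ATM exosomes, against 7.53 in lean ATM exosomes. That of mir-692-3 would be 3.14 in obese ATM exosomes, against 7.43 in lean ATM exosomes. The same reckoning puts mir-682 at 0.91 in obese ATM exosomes, against 5.70 in lean ATM exosomes, and mir-692-1 at 0.44 in obese ATM exosomes, against 5.03 in lean ATM exosomes. With the opposite direction each pair of values would change places. The lowest mean log2 expression of the table is −0.92, so the lower levels reckoned for mir-682 and mir-692-1 lie near its low end. How far the size of their fold changes depends on low counts was not tested.

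The copies of mir-692 differed from each other more in level than in fold change. The mean log2 expression of mir-692-3 exceeded that of mir-692-1 by 2.55 (5.84-fold), while the identical pair mir-692-2 and mir-692-3 differed by 0.19. Among the 29 miRNAs with several copies in the table, the median range over copies was 0.15 in mean log2 expression and 0.12 in log2 fold change. The mir-692 copies had the 5th largest range of level and the 11th largest range of fold change, 0.57. The hairpin entries of 2 other pairs of rows are identical in letters, and those differed by 0.07 (mir-7676-1 and mir-7676-2) and 0.40 (mir-3084-1 and mir-3084-2) in log2 fold change. Rows with the same letters thus carry unequal values, and the sources used here do not say how reads with several matches were assigned. Of the 29, 25 had all copies on the same side of 0, mir-692 among them. Because they share a mature sequence, the 3 rows are not independent measurements.

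The predicted folds of these hairpins were weaker per base than the median hairpin of the table. The folding energy per base was −0.31 kcal/mol for mir-682, weaker than in 93.0% of the 447 hairpins, beside a median of −0.42. It was −0.35 for mir-692-2 (weaker than in 79.3%) and −0.38 for mir-692-1 (70.1%). In total energy mir-692-1 (−41.4 kcal/mol) and mir-692-2 (−38.4) folded more strongly than the median of −34.2, and mir-682 (−30.1) more weakly. Both mir-692 hairpins have 109 bases and mir-682 has 96, beside a median of 79. The predicted structure of mir-692-2 had 3 loops and that of mir-682 had 2, whereas 422 of the 447 hairpins (94.4%) folded into 1 loop, as did mir-692-1. Of the mature bases, 76.2% were paired in both mir-692 hairpins and 85.7% in mir-682, beside a median of 84.0% for the better paired arm of each hairpin. GC content was 64.2% in mir-692-2, 62.4% in mir-692-1 and 61.5% in mir-682, above the median of 52.7%. These features come from the reference letters alone and owe nothing to the expression values, but they were computed on 3 hairpins, of which 2 share most of their sequence.

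**Figure D3:**
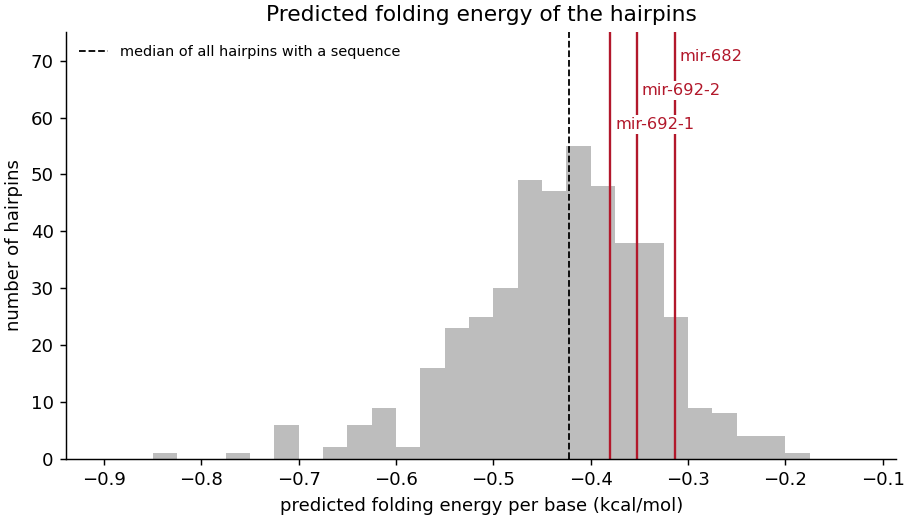
Number of hairpins by predicted folding energy per base (kcal/mol) for the 447 hairpins with a sequence. Red lines mark mir-692-1 (−0.38), mir-692-2 (−0.35) and mir-682 (−0.31), all to the right of the dashed median of −0.42, where folds are weaker.

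Hairpins with numbers near these lay mostly on the same side. The numbers follow the order in which miRNAs were registered, and the table holds 16 hairpins from mir-680 to mir-720, of which 14 had a negative fold change and 6 were called, all negative. Without mir-682 and mir-692, 10 of 12 were negative and 2 were called, beside 251 negative and 15 negative calls among the 535 hairpins that are neither. Their median log2 fold change was −2.40, against 0.11 over those 535. In the authors' deposited table the called pair are mir-690, with a log2 fold change of −4.23 (adjusted p = 0.00192), and mir-712, with −3.38 (adjusted p = 0.0295). The authors' deposited table has mir-714 at −4.82 (adjusted p = 0.0646) and mir-702 at −4.33 (adjusted p = 0.0581), values within the range of mir-692 but with wider intervals than mir-692-2, and neither passed. At the other end of these numbers, the authors' deposited table has mir-704 at 1.43 (adjusted p = 0.429).

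**Figure D4:**
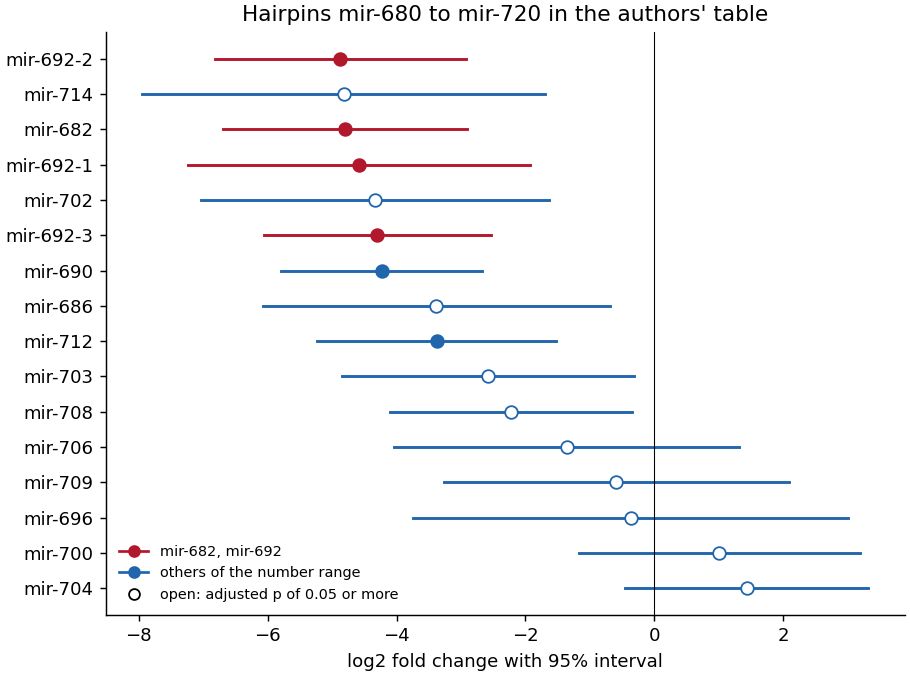
Log2 fold change with its 95% interval for the 16 hairpins mir-680 to mir-720, from the authors' deposited fold changes and t. Red marks mir-682 and mir-692, blue the others, and open points did not pass an adjusted p of 0.05. The points run from −4.87 for mir-692-2 to 1.43 for mir-704.

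Few other hairpins share letters, on either strand, with ferritin or ribosomal protein genes. Counting genes by their symbols, 9 of the 447 hairpins share at least 20 bases with such a gene that is not their host, and 3 of these are mir-692-1, mir-692-2 and mir-682, with longest stretches of 53, 109 and 48 bases. The other 6, which are mir-690, mir-1954, mir-466k, mir-3473a, mir-3473c and mir-3473f, share stretches of 20 to 24 bases. Such short stretches need not be particular to ferritin or ribosomal protein genes. For mir-1954, 4 such genes stand beside 1506 other genes in all that share at least 20 bases. For mir-690 (with Rpl27a), mir-3473a and mir-3473f (both with Rpl10a) the longest stretch is antisense to the gene, unlike those of mir-692 and mir-682. The authors' deposited table puts them between −4.23 (mir-690) and −0.71 (mir-3473c) in log2 fold change, and mir-690 alone was called. The hairpin mir-5121 lies within its own host, Rpl13a, and the authors' deposited table has it at 0.84 (adjusted p = 0.825).

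Of the 79 hairpins that share at least 20 bases with any other gene, without mir-692-1, mir-692-2 and mir-682, 41 (51.9%) were negative in log2 fold change, with a median of −0.07, and 3 were called negative and 2 positive. Among those that share with several genes, a class set after values were seen, negative values were in the majority. Of 24 hairpins that share 20 bases with at least 5 other genes, 20 (83.3%) were negative in the authors' deposited table. Without mir-692-1, mir-692-2 and mir-682, 17 of 21 (81.0%) were negative, with a median log2 fold change of −0.84, and 2 were called, mir-690 and mir-1928. Among the 365 hairpins that share no such stretch, 165 (45.2%) were negative, the median was 0.18, and 6 were called negative and 9 positive. Hairpins of 1 family, such as those of mir-3473, are counted singly here, so hairpins in these classes are not all independent. With stretches of 18 bases in place of 20 and without those 3, 2 hairpins with at least 5 genes were called negative and 2 positive. The negative share among them was 22 of 37 (59.5%), with a median of −0.31. Also without those 3, it was 7 of 9 (77.8%) with 25 bases, and 16 of 20 (80.0%) with 20 bases on the sense strand alone. The 6 other hairpins with at least 50% of windows in other genes lie between −3.38 (mir-686) and 0.61 (mir-3084-1) by the authors' deposited table, and none was called. For the mir-3084 pair and the mir-7676 pair the other gene is a host of the identical copy, so no window is shared beyond the hosts of each pair. Ftl1-ps1, which holds every window of mir-692-2, is likewise the host of the identical copy mir-692-3. The share of mir-692-2 without Ftl1-ps1 was not computed, but 54 of its 89 windows (60.7%) occur in Ftl1, which hosts no copy. The hairpin mir-1934 shares 20 bases with 451 genes and was at 0.01 in the authors' deposited table. There mir-1954, which shares with 1506 genes, was at −1.78 without a call, and mir-1928, which shares with 24, was at −4.62. Whether reads of Ftl1 or Rpl37a fragments entered the rows of mir-692 and mir-682 was not tested, since the table holds no reads and no levels of those mRNAs.

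**Figure D5:**
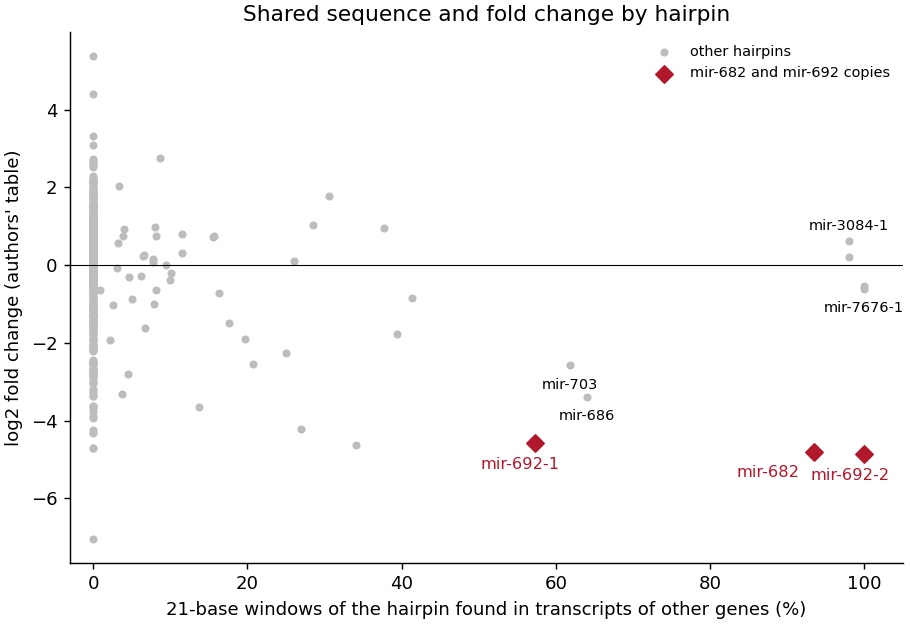
Log2 fold change in the authors' deposited table against the percentage of a hairpin's 21-base windows that occur in sense transcripts of other genes, for 447 hairpins. Other genes include hosts of an identical copy, such as Ftl1-ps1 for mir-692-2. The red diamonds mir-692-1 (57.3%), mir-682 (93.4%) and mir-692-2 (100%) lie below −4, and the other hairpins with at least 50% of windows shared spread from mir-686 (−3.38) and mir-703 (−2.58) to mir-7676 (−0.61 and −0.53) and mir-3084 (0.61 and 0.21).

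By distance in log2 fold change and mean log2 expression, a likeness over 2 values of the whole comparison and not over libraries, the hairpins nearest to the median of the 4 were mir-511 (distance 0.03), mir-690 (0.94), mir-7070 (1.37), mir-3968 (1.41) and mir-8098 (1.64). All 5 were negative calls, a side set by the choice on fold change and so not a result. The nearest, mir-511, hosted by the macrophage mannose receptor gene Mrc1, was at −4.70 (adjusted p = 0.0148) with a mean log2 expression of 4.17 in the authors' deposited table. It shares 20 bases with 0 other genes, and mir-3968 and mir-8098 likewise share with 0, whereas mir-690 shares with 75 and mir-7070 had no hairpin sequence at hand.

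The labelled cell type was checked with 8 macrophage and leukocyte hairpins, all in the table, which the authors' deposited table puts between 4.17 (mir-511) and 15.02 (mir-22) in mean log2 expression. Of these 8, 2 had a negative and 6 a positive log2 fold change, with a median of 1.04, and the called ones were mir-511 (−4.70) and mir-155 (4.41), on opposite sides. Markers of other cells were lower for liver (mir-122, 2.15), striated muscle (2.27 for each mir-133a copy) and epithelium (0.60 to 3.62), while the endothelial mir-126a stood at 6.46 and the erythrocyte hairpins mir-451a and mir-486a at 6.76 and 11.81. By the authors' deposited table these other-cell markers had log2 fold changes between −1.09 (mir-486a) and 2.30 (mir-429), and none was called. Their part in the values of mir-682 and mir-692 was not tested. Of the hairpins listed for overlap with tRNA or rRNA, the authors' deposited table holds mir-6236, at −0.45 (adjusted p = 0.929), and mir-6240, at −0.07 (adjusted p = 0.977), neither of them called. That list was drawn up by name, so other hairpins of the table may overlap tRNA or rRNA too.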

How the data were processed

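Small RNA of ATM exosomes was sequenced in 7 obese and 7 lean libraries, and 1 table of the authors' comparison was analysed. Tools listed in the submitters' processing notes, with no role stated, are Trimmomatic 0.30, Novoalign, limma, edgeR, MultiQC and FastQC. The sources used here do not give the genome build, the miRNA annotation, filters or the handling of reads with several matches. Per the file headers, the deposited columns are those of limma's output. The authors computed log2 fold changes and mean log2 levels over libraries, with a scaling between libraries that is not stated. Each t is the score the authors' model gave. The p-values are as deposited by the authors, before and after adjustment. The deposited B is on a natural log scale, as log odds from the authors' model. Benjamini-Hochberg values over all 539 rows equal the deposited adjusted p within 1.46e-14. The table has 0 columns of values per library, so no model was fitted, depth is unknown and its precision cannot be given.

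Dividing each deposited fold change by its t gave the standard error. Intervals (95%) rest on 17.9 degrees of freedom, recovered from t and p. A hairpin is called where its adjusted p is under 0.05. Hairpin and mature sequences came from RefSeq on GRCm38.p6 (447 and 480 of 539 rows matched by symbol), transcripts and positions from GENCODE M21 on GRCm38. For called hairpins 23 of 30 matched, below 80%, so a check of sequence features over called hairpins would be void, and calls counted within a sequence class cover matched hairpins only. Shared stretches were exact matches, tested on simulated data, to transcripts of genes that are not miRNAs. Alignments used Biopython 1.88 and folds RNAfold 2.7.2.

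The hairpins and lists were chosen with earlier results of these data known. The naming rule takes mir-682 and mir-692, the hairpins mir-680 to mir-720, tRNA- and rRNA-like hairpins, those that share 20 bases with ferritin, ribosomal protein or other genes, and the 5 nearest in fold change and level. The classes of at least 5 genes and of at least 50% of windows, and mir-1934, mir-5121, mir-7676 and mir-3084, were added for contrast after values were seen. A hairpin within another gene is not reported here.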

Additional observations from a re-analysis of the deposited data

How the results depend on the processing

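The fold changes of mir-682 and the 3 mir-692 copies kept their sign and their calls when 0.34, the median fold change of 180 abundant hairpins, was subtracted (−5.21 for mir-692-2, −5.14 for mir-682, −4.93 for mir-692-1 and −4.64 for mir-692-3), with an adjusted p under 0.1, and with a 2-fold minimum. A mean log2 expression of at least 3.32 leaves out mir-682 and mir-692-1, and 2 of the 4 stay in and are called. With 1 hairpin per stem mir-682 and mir-692-3 stay in and 2 are called. Positive calls over all hairpins numbered 19 at an adjusted p under 0.1, and negative ones 25 after recentring, with 8 positive. The expression minimum gave 16 of each. Of 447 hairpins, 82 share at least 20 bases with another gene, 229 share at least 18 and 40 at least 25, while the sense strand alone gave 63. Depth, and errors of single libraries, could not be assessed, and fits to values per library were not run. No paired analysis was possible because single libraries have no values in the deposited file.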
